A study of Homo sapiens with 15 samples.

Results

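The genes described here are 9 genes of the BCL2 family, BAX, BAK1, BAD, BCL2, BCL2L1, BCL2L11, MCL1, BBC3 and PMAIP1, and CASP9, the initiator caspase of the mitochondrial route to apoptosis. They were chosen by name, as the rows of the deposited table of raw counts whose Entrez gene number carries one of these symbols. The choice was made with earlier results of these data known. All 10 were found among the 28395 genes of the table, and all 10 passed the filter on low counts that left 16740 genes for testing. The study exposed BEAS-2B cells, an immortalised line of human bronchial epithelial cells, to nanoplastics of polyethylene terephthalate from degraded water bottles (PET-NPLs) at 50 µg/mL, and sequenced total RNA after removal of ribosomal RNA. Nonexposed control and PET-NPL-exposed cells were compared at 24 h (2 and 2 samples), 15 weeks (2 and 2 samples) and 30 weeks (3 and 4 samples), which makes 15 samples in 6 conditions. All samples were of 1 cell line, and control cells received no particles. By their labels the 8 samples of the earlier times form batch 1 and the 7 of 30 weeks form batch 2, so between 15 and 30 weeks time and batch cannot be told apart. The labels do not say that replicates came from separate cultures, and p-values therefore measure the spread between these samples, which may be technical.

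Proteins of the BCL2 family decide whether the outer membrane of the mitochondrion stays closed. BAX and BAK1 are the effectors that open pores in it, BCL2, BCL2L1 (BCL-XL) and MCL1 are the guardians that hold them back, and the BH3-only proteins BAD, BCL2L11 (BIM), BBC3 (PUMA) and PMAIP1 (NOXA) sense stress and disable the guardians. Once the membrane opens, cytochrome c meets APAF1 in the cytosol and the assembled apoptosome activates CASP9, which in turn cleaves the executioner caspases. Much of this control works on proteins, by binding, cleavage and turnover, which RNA counts do not measure. Counts per gene also do not separate splice forms, such as the long and short forms of BCL2L1, MCL1 and BCL2L11, which can act in opposite ways.

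The promoter sequences of CASP9, PMAIP1 and BCL2L1 are shown because these genes carry changes described below: CASP9 was the gene called between exposed and control cells, and PMAIP1 and BCL2L1 fell in both arms between 24 h and 15 weeks. BCL2 fell more than either in both arms. It is not shown, since its window held no base outside annotated exons. The bases are those before an annotated start (RefSeq, GRCh38.p14), printed 5′ to 3′ on the strand of the gene, with annotated exons left out. They lie at chr1:15524890-15525040 (CASP9, minus strand), chr18:59899746-59899995 (PMAIP1, plus strand) and chr20:31723990-31724213 (BCL2L1, minus strand). The start used for CASP9 lies inside the gene, which reaches to 15524912. Its bases from 15524890 to 15524912, with the last capitals, are therefore within the gene. Capitals mark GGGCGG or its reverse CCGCCC, the core of a GC box, in CASP9 and PMAIP1, and TATAAA or its reverse TTTATA, the core of a TATA box, in BCL2L1.
CASP9: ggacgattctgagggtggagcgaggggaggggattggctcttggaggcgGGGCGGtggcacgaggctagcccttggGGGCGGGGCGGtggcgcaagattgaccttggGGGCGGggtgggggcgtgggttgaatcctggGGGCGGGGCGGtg
PMAIP1: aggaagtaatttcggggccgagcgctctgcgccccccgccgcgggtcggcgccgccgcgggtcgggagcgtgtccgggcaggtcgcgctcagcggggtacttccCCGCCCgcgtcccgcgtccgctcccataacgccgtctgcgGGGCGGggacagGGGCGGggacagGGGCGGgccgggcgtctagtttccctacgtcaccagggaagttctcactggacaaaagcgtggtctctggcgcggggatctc
BCL2L1: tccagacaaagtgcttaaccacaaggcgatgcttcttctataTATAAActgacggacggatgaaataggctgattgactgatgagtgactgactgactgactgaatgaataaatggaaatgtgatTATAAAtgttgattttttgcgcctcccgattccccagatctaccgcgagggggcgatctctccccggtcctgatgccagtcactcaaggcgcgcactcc
Over the whole 250 bases before the start, CASP9 had 8 GC box cores and no TATA core, PMAIP1 had 4 and none, and BCL2L1 had none and 2. The annotation gives CASP9 and BCL2L1 a second start, whose windows are not shown. The second window of CASP9 also had 8 GC box cores, and that of BCL2L1 had no core of either kind. Of 35116 windows of that length, 42.6% held a GC box core and 10.7% a TATA core on either strand. A match is a string of letters and not a shown binding site.

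The libraries held 23143202 to 31459990 counts each, and the members had 35 (BCL2) to 10466 (MCL1) counts in a library. Levels below are given in CPM, counts relative to the library total scaled by its TMM factor, and 1 CPM stood for 23 to 31 counts. At 30 weeks control replicate 1 had a TMM factor of 0.739 against 0.907 to 1.13 in all other libraries. Exposed replicate 2 lay far from the other exposed replicates (chi-square per gene 87.8 to 135, against 16.3 to 36.1 among the other exposed pairs). Both are called below the libraries that stand apart. The control pairs at 30 weeks differed by 76.0 to 106, and replicates 1 and 2 were the closest of them. Pairs within a group at 24 h and 15 weeks differed by 9.08 to 15.7. Small noncoding RNAs made up 9.75% to 12.9% of the counts in batch 1, 22.3% to 31.0% in control cells at 30 weeks and 17.0% to 21.5% in exposed cells at 30 weeks. Epithelial markers summed to 2070 to 2383 CPM at 24 h, 885 to 1141 CPM at 15 weeks, 439 to 517 CPM in control cells at 30 weeks and 957 to 1225 CPM in exposed cells at 30 weeks, where 4 of 8 were called higher, and the epithelial cadherin CDH1 had at most 3 counts in each 15-week library. Mesenchymal markers summed to 1695 CPM or more in every library, and at 30 weeks 3 of 7 tested were called higher and 1 lower in exposed cells. Skeletal muscle markers summed to 388 to 498 CPM in control cells at 30 weeks and to 17.2 to 44.01 CPM in every other library, with 7 of 8 tested called lower in exposed cells at 30 weeks. CD68, the 1 blood marker that passed the filter on low counts, was also called lower in exposed cells at 30 weeks. In bulk samples fewer cells that express a gene and less RNA per cell cannot be told apart, and the part of these differences in the results below was not tested.

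To compare levels between genes, CPM were divided by the length of the canonical transcript in kilobases. At 24 h and 15 weeks MCL1, a guardian protein of very short life, had the highest level (68.3 to 84.8 CPM per kb over the 4 group means), followed by BAX (48.1 to 51.9 CPM per kb). At 30 weeks this order was turned, with BAX at 102 CPM per kb in control and 84.2 in exposed cells, above MCL1 at 53.5 and 65.3. MCL1 and BAD overlapped in their ranges in control cells at 30 weeks, where BAD averaged 50.8 CPM per kb. At the other end stood BCL2 and BBC3. In exposed cells at 24 h these last genes overlapped (0.9746 and 0.9588 CPM per kb), and from 15 weeks on BCL2 was the lowest of the 10, at 0.252 to 0.356 CPM per kb. PMAIP1 and BAK1 overlapped at 24 h in both arms, and at 30 weeks PMAIP1, CASP9 and BCL2L11 formed a chain of overlapping neighbours in both arms. Set against BAX per kb, BCL2 amounted to 1.57% to 2.32% in the 24 h libraries, 0.634% to 0.758% in the 15-week libraries and 0.175% to 0.477% in the 30-week libraries, and these ranges did not overlap.

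**Figure D1:**
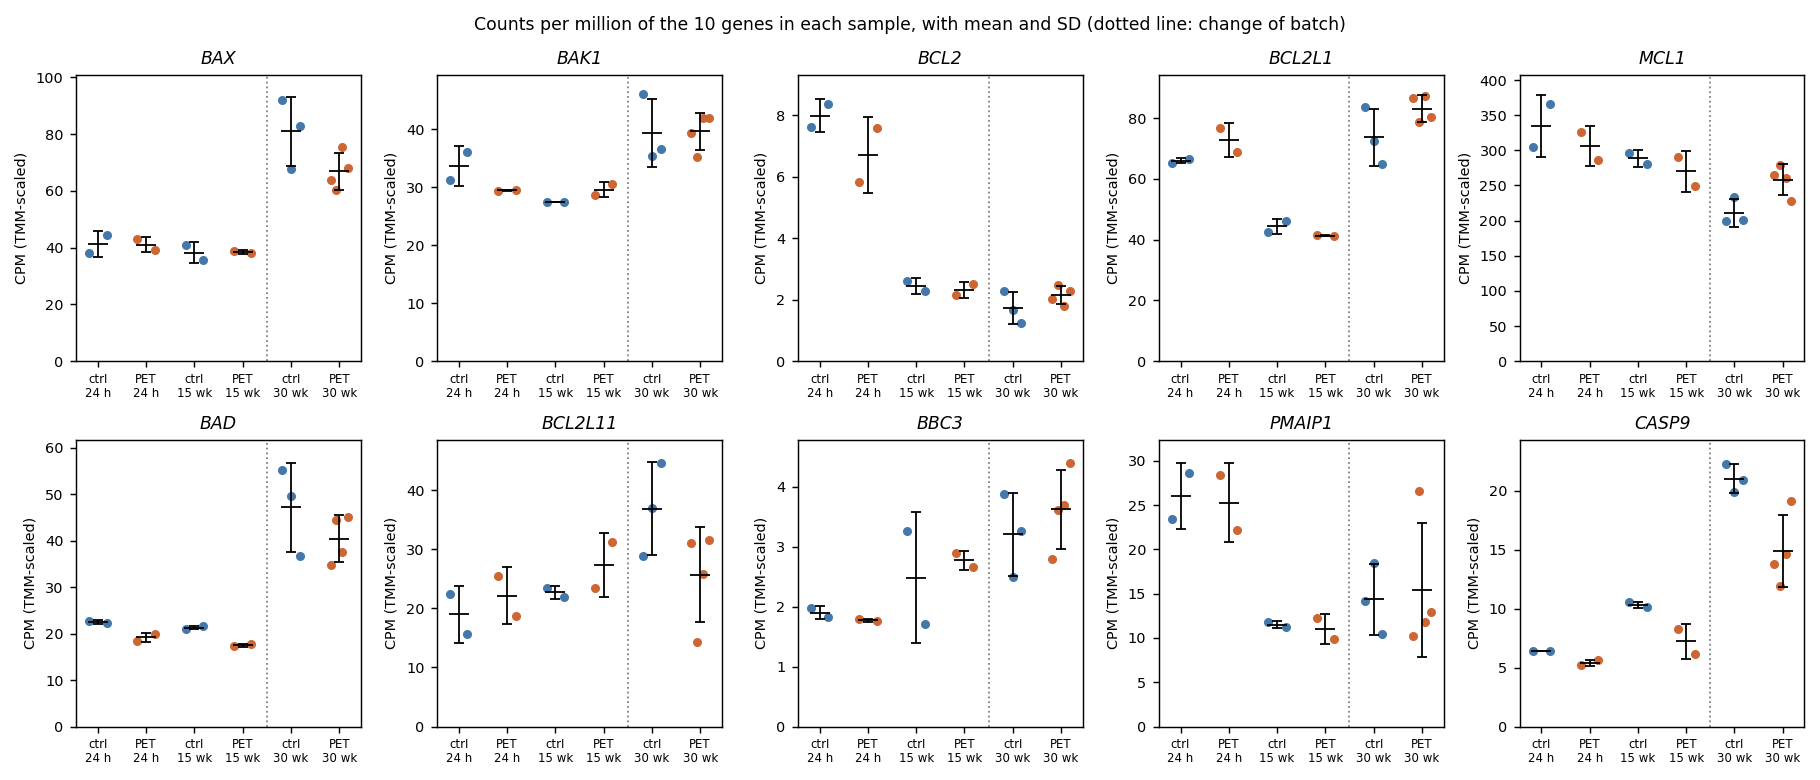
TMM-scaled CPM (y axis, linear, starting at 0) of the 10 genes in each of the 15 samples, by condition on the x axis (blue, control; orange, PET-NPL-exposed), with the group mean as a bar and the SD as whiskers; the dotted line marks the change from batch 1 to batch 2. CASP9 in exposed samples lies below all control samples at each time point, and BCL2 falls from 5.83 to 8.36 CPM at 24 h to 1.25 to 2.62 CPM later.

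The comparison of exposed with control cells asked which of these genes responded to PET-NPLs at each time. At 24 h 0 of 10 members were called by edgeR's quasi-likelihood test with Benjamini-Hochberg adjustment (0% of all genes tested), at 15 weeks 0 of 10 (0%), and at 30 weeks 1 of 10, CASP9, which was lower (23.7% of all genes called, 11.7% lower and 12.0% higher). At an unadjusted p under 0.05 the members numbered 0 at 24 h (277 of 16740 genes) and 1 at 15 weeks (CASP9, with 4.92% of all genes). At 30 weeks they numbered 4 (CASP9, BAX and BCL2L11 lower and MCL1 higher, with 35.8% of all genes). DESeq2 and limma-voom, with or without surrogate variables, also called 0 members at 24 h, at 15 weeks and for a change of effect from 15 to 30 weeks. The median log2 fold change over the members at 30 weeks was 0.055 against 0.008 over all genes, and the median size was 0.248 against 0.298. Groups did not overlap for 6 of 10 members at 24 h (26.0% of all genes), 5 of 10 at 15 weeks (45.3%) and 1 of 10 at 30 weeks (27.3%). The changes at 30 and 15 weeks were called different for 0 of 10 members (4.74% of all genes), and for 0 at an unadjusted p under 0.05 (2559 of 16740 genes). No difference between the changes of a member at 24 h and later was tested.

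Of the effectors, BAX (chr19:48954875-48961798, plus strand) encodes a protein that moves from the cytosol into the mitochondrial membrane. At 24 h its level was 38.0 and 44.6 CPM in control and 43.0 and 39.1 CPM in exposed samples, and at 15 weeks 40.8 and 35.6 CPM against 39.0 and 38.1 CPM. At 30 weeks control samples held 92.2, 67.8 and 82.9 CPM and exposed samples 63.9, 60.2, 75.5 and 68.0 CPM. Exposed samples were on the low side at 30 weeks, but the 2 highest overlapped with the lowest control sample. The log2 fold changes at the earlier times were -0.01 and 0.01. At 30 weeks the value was -0.27 (SE 0.12, adjusted p = 0.121), and without control replicate 2 at 30 weeks it was called (-0.39, adjusted p = 0.0398). BAK1 (chr6:33572552-33580276, minus strand), which resides in the membrane, was at 31.2 and 36.1 CPM in control and 29.3 and 29.5 CPM in exposed samples at 24 h. Its levels were 27.4 CPM in both control samples against 28.6 and 30.5 CPM in exposed samples at 15 weeks, and 35.3 to 46.1 CPM against 35.2 to 42.0 CPM at 30 weeks. Exposed samples were thus below the control samples at 24 h, above them at 15 weeks and among them at 30 weeks, with a log2 fold change of 0.01 (SE 0.12, 95% confidence interval -0.24 to 0.26) at the last time.

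Among the guardians, BCL2 (chr18:63123346-63320090, minus strand), the founding member of the family, was low throughout. Control samples held 7.62 and 8.36 CPM at 24 h, 2.62 and 2.27 CPM at 15 weeks and 2.28, 1.66 and 1.25 CPM at 30 weeks. Exposed samples held 5.83 and 7.58 CPM, then 2.14 and 2.50 CPM, then 2.03, 2.49, 1.81 and 2.29 CPM. The arms overlapped at 15 and 30 weeks, and the log2 fold change at 30 weeks was 0.32 (SE 0.22, adjusted p = 0.308) on 35 to 71 counts per library. BCL2L1 (chr20:31664452-31723963, minus strand) was at 65.4 and 66.6 CPM in control and 76.8 and 68.7 CPM in exposed samples at 24 h, and at 42.6 and 46.1 CPM against 41.4 and 41.2 CPM at 15 weeks. At 30 weeks control samples held 83.7, 72.3 and 64.9 CPM and exposed samples 86.5, 78.6, 87.2 and 80.2 CPM. At that time the control sample that reached into the exposed range was replicate 1, one of the libraries that stand apart. The log2 fold change at 30 weeks was 0.18 (SE 0.11, adjusted p = 0.260), and without that library and exposed replicate 2 it was called (0.31, adjusted p = 0.0296). That setting was added after seeing the data and was the only 1 of 16 alternatives that called BCL2L1. MCL1 (chr1:150574558-150579610, minus strand) had 304 and 366 CPM in control and 326 and 286 CPM in exposed samples at 24 h, and 297 and 280 CPM against 291 and 249 CPM at 15 weeks. At 30 weeks control samples held 199, 234 and 200 CPM and exposed samples 265, 280, 260 and 227 CPM. Of the exposed samples 3 of 4 were above every control sample, and the log2 fold change was 0.29 (SE 0.12, unadjusted p = 0.0307, adjusted p = 0.0999). By limma-voom with surrogate variables MCL1 was called at 30 weeks (0.25, adjusted p = 0.0441).

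Among the BH3-only genes, BAD (chr11:64269828-64284704, minus strand), whose protein is held inactive by growth factor signalling, was at 22.7 and 22.2 CPM in control and 18.4 and 19.9 CPM in exposed samples at 24 h. At 15 weeks the levels were 21.0 and 21.6 CPM against 17.3 and 17.8 CPM, and at 30 weeks 55.3, 49.7 and 36.6 CPM against 34.8, 44.4, 37.5 and 45.0 CPM. Exposed samples were below both controls at 24 h and at 15 weeks and overlapped with them at 30 weeks. The log2 fold changes were -0.23 (SE 0.18), -0.28 (SE 0.18) and -0.22 (SE 0.14), and the last had an adjusted p of 0.261. Without control replicate 3 at 30 weeks, the lowest of the control samples, BAD was called (-0.37, adjusted p = 0.0487) and was then the only member called, since CASP9 was not. BCL2L11 (chr2:111120914-111168445, plus strand), which binds all guardians, was at 22.4 and 15.6 CPM in control and 25.6 and 18.7 CPM in exposed samples at 24 h, and at 23.5 and 21.9 CPM against 23.5 and 31.2 CPM at 15 weeks. At 30 weeks control samples held 28.9, 37.0 and 44.6 CPM and exposed samples 31.1, 14.3, 25.8 and 31.5 CPM, the lowest being replicate 2. The log2 fold change at 30 weeks was -0.52 (SE 0.23, unadjusted p = 0.0400, adjusted p = 0.120), on the opposite side of 0 from the values at 24 h (0.22) and 15 weeks (0.27). The difference between 30 and 15 weeks was -0.79 (SE 0.39, adjusted p = 0.351). By limma-voom with surrogate variables BCL2L11 was called at 30 weeks (-0.51, adjusted p = 0.00698).

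BBC3 (chr19:47220824-47232860, minus strand), a direct target of p53, had 42 to 125 counts per library. Its levels were 1.97 and 1.82 CPM in control and 1.79 and 1.75 CPM in exposed samples at 24 h, 3.25 and 1.71 CPM against 2.88 and 2.66 CPM at 15 weeks, and 2.49 to 3.87 CPM against 2.79 to 4.40 CPM at 30 weeks. The arms overlapped at 15 and 30 weeks, where the log2 fold changes were 0.16 (SE 0.30) and 0.18 (SE 0.23). PMAIP1 (chr18:59899996-59904305, plus strand), whose protein binds MCL1, was at 23.4 and 28.7 CPM in control and 28.4 and 22.2 CPM in exposed samples at 24 h. It stood at 11.8 and 11.2 CPM against 12.2 and 9.83 CPM at 15 weeks, and at 14.2, 18.4 and 10.5 CPM against 10.2, 26.6, 11.8 and 12.96 CPM at 30 weeks. Exposed replicate 2 alone was above all control samples at 30 weeks. The log2 fold change there was 0.10 (SE 0.27), and -0.30 without that replicate and control replicate 1.

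CASP9 (chr1:15491401-15524912, minus strand) was the only member whose exposed and control samples did not overlap at any of the 3 times. How many of all genes did so at all 3 times was not counted. At the single times 26.0% (24 h), 45.3% (15 weeks) and 27.3% (30 weeks) of all genes did not overlap. At 24 h it was at 6.37 CPM in both control samples and at 5.23 and 5.60 CPM in exposed samples. At 15 weeks control samples held 10.5 and 10.2 CPM and exposed samples 8.25 and 6.17 CPM. At 30 weeks control samples held 22.3, 19.9 and 20.9 CPM and exposed samples 13.7, 12.0, 14.6 and 19.1 CPM. Every exposed sample was below every control sample of its time, although exposed replicate 4 at 30 weeks came within 1 CPM of the lowest control sample. After 24 h the log2 fold change amounted to -0.23 (SE 0.21, unadjusted p = 0.291). It reached -0.52 after 15 weeks (SE 0.20, unadjusted p = 0.0222, adjusted p = 0.936) and -0.50 after 30 weeks (SE 0.15, adjusted p = 0.0249 by edgeR). The changes at 30 and 15 weeks differed by 0.02 on the log2 scale, with a 95% confidence interval of -0.52 to 0.55.

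The call of CASP9 at 30 weeks did not hold in every setting, while its fold change moved less. It held in 10 of 16 alternative settings and was lost with the 30-week samples fitted alone (adjusted p = 0.0738), without control replicate 1 (0.100) or 3 (0.0522), without exposed replicate 1 (0.0658) or 3 (0.0539), and without both libraries that stand apart (0.0967), when the log2 fold change was -0.36. In the 4 fits without 1 library that lost the call the log2 fold change was -0.45 to -0.50, and with the 30-week samples alone it was -0.51. In all 16 settings CASP9 was lower in exposed cells. Leaving out libraries could not have turned this sign, since every exposed sample was below every control sample. With the 6 small noncoding RNAs removed, whose share differed between the arms, the log2 fold change was -0.50 (adjusted p = 0.0234). The part of the difference in skeletal muscle markers between the 30-week arms in that of CASP9 was not tested.

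**Figure D2:**
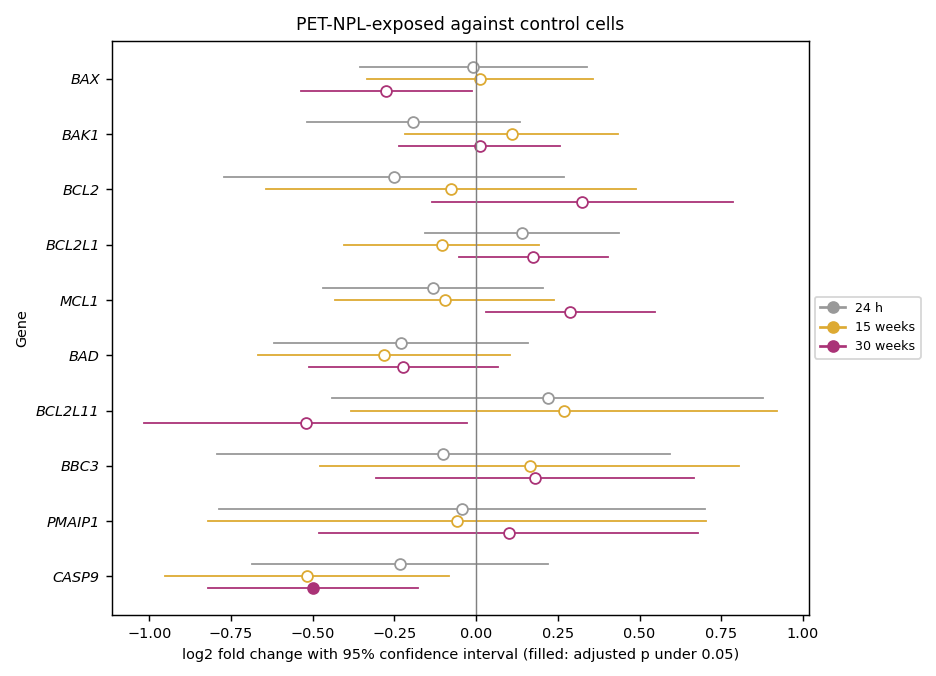
Fitted log2 fold change (x axis) of each gene (y axis) in PET-NPL-exposed against control cells at 24 h (grey), 15 weeks (yellow) and 30 weeks (purple), with 95% confidence intervals as lines and filled points where the adjusted p was under 0.05. The single filled point is CASP9 at 30 weeks (-0.50), and the CASP9 values at all 3 times lie below 0.

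**Figure D3:**
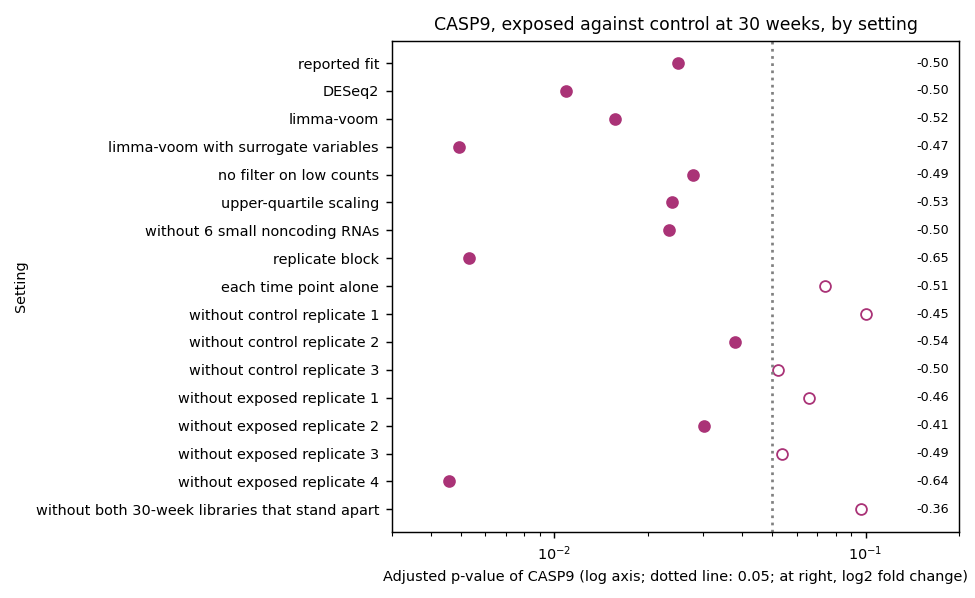
Adjusted p of CASP9 at 30 weeks (x axis, log scale) in the reported fit and 16 alternative settings (y axis), with the dotted line at 0.05, filled points below it and the log2 fold change printed at right. The log2 fold change stays between -0.65 and -0.36, and the adjusted p ranges from 0.00458 to 0.100 on both sides of the line.

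Over the 15 samples the genes whose centred log2 CPM lay nearest to that of CASP9 were PLD3 (root mean square difference 0.191), NR1H3 (0.196) and CKAP4 (0.203), where the SD of CASP9 itself was 0.739. At 30 weeks PLD3 was also called lower in exposed cells (log2 fold change -0.61, adjusted p = 0.00381), while NR1H3 (-0.30, adjusted p = 0.242) and CKAP4 (-0.19, adjusted p = 0.173) did not pass the test. Their nearness describes the pattern over these conditions and was not tested.

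The larger differences in these genes were between time points. From 24 h to 15 weeks, within batch 1, BCL2 fell in control cells by 1.71 on the log2 scale (SE 0.26, adjusted p = 0.000146), BCL2L1 fell by 0.57 (SE 0.14, adjusted p = 0.00688) and PMAIP1 fell by 1.18 (SE 0.36, adjusted p = 0.0236). CASP9 rose by 0.70 in the same comparison (SE 0.21, adjusted p = 0.0209). These were 4 of 10 members, beside 24.9% of all genes. In exposed cells 3 of 10 members were called (26.0% of all genes). BCL2 fell by 1.53 (SE 0.26, adjusted p = 0.000393), BCL2L1 fell by 0.82 (SE 0.14, adjusted p = 0.000457) and PMAIP1 fell by 1.19 (SE 0.36, adjusted p = 0.0220), while the change of CASP9 was 0.41 (SE 0.21, adjusted p = 0.174). Every 15-week sample was below every 24 h sample of its arm for these falling genes, among which are guardians (BCL2, BCL2L1) and a BH3-only gene (PMAIP1). With a single sample left in a group the calls thinned. In control cells the number called was 2 without control replicate 1 or 2 at 24 h or replicate 2 at 15 weeks, and 1 without replicate 1 at 15 weeks, when BCL2 was still called. PMAIP1 and CASP9 lost the call in each of these 4 fits, with adjusted p from 0.0544 to 0.134 and from 0.0757 to 0.104, and BCL2L1 lost it without replicate 1 at 15 weeks (0.0782). In exposed cells PMAIP1 lost the call in 3 such fits, without replicate 1 at 24 h (adjusted p = 0.137) and without replicate 1 (0.0668) or 2 (0.158) at 15 weeks.

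From 15 to 30 weeks, across batches, the directions were mostly upward. In control cells 6 of 10 members were called, 5 of them higher, beside 50.3% of all genes (25.6% higher). BAX rose by 1.08 (SE 0.15), BAD by 1.15 (SE 0.17), CASP9 by 1.02 (SE 0.19), BCL2L1 by 0.73 (SE 0.13) and BAK1 by 0.52 (SE 0.14) on the log2 scale, and MCL1 fell by 0.45 (SE 0.14, adjusted p = 0.0156). The call of MCL1 was lost without either 15-week control sample (adjusted p = 0.111 and 0.0549). In exposed cells 5 of 10 members were called, all higher, beside 46.0% of all genes (23.3% higher). These were BAD (1.21, SE 0.16), CASP9 (1.04, SE 0.18), BCL2L1 (1.01, SE 0.13), BAX (0.80, SE 0.15) and BAK1 (0.42, SE 0.13). BAK1 lost the call without either 15-week exposed sample (adjusted p = 0.139 and 0.0729). Both effectors, a guardian, a BH3-only gene and the caspase were thus higher at 30 weeks in both arms. BCL2 did not return toward its 24 h level, with -0.51 (SE 0.25, adjusted p = 0.104) in control and -0.11 (SE 0.23) in exposed cells.

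**Figure D4:**
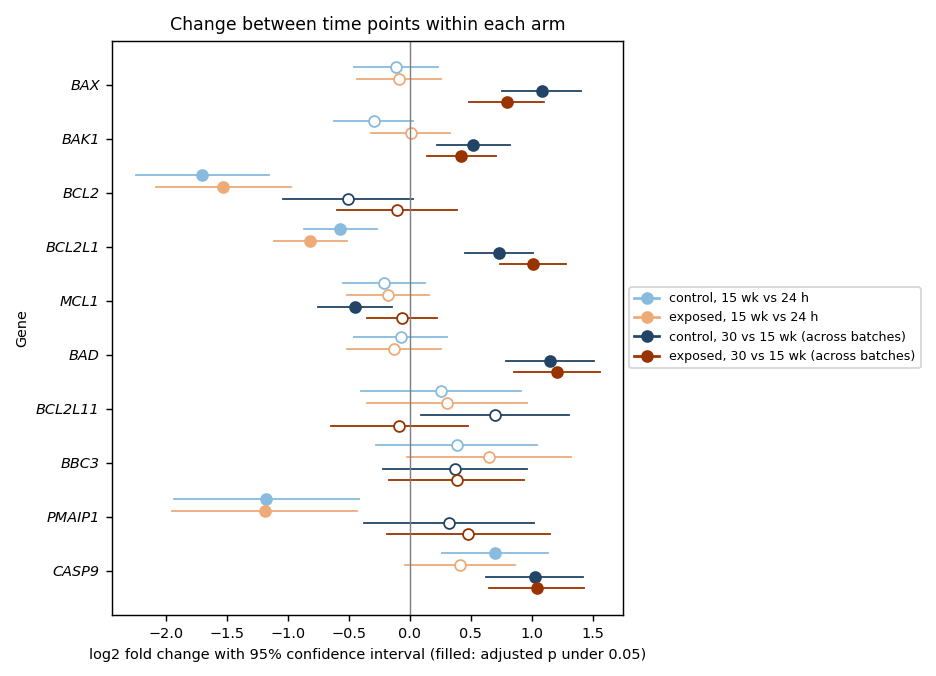
Fitted log2 fold change (x axis) of each gene (y axis) between time points in control (blue) and exposed (orange) cells, light for 15 weeks against 24 h within batch 1 and dark for 30 against 15 weeks across batches, with 95% confidence intervals and filled points where the adjusted p was under 0.05. BCL2, BCL2L1 and PMAIP1 lie below 0 in the first interval in both arms, and BAX, BAK1, BCL2L1, BAD and CASP9 lie above 0 in the second.

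Over all 6 conditions BCL2 had the widest spread of group means, with 7.99 CPM ± 0.52 (SD, n = 2) in control cells at 24 h against 1.73 CPM ± 0.52 (SD, n = 3) in control cells at 30 weeks, a ratio of 4.62. CASP9 followed with a ratio of 3.88, between 5.42 CPM ± 0.26 (SD, n = 2) in exposed cells at 24 h and 21.0 CPM ± 1.2 (SD, n = 3) in control cells at 30 weeks. BAK1 (1.44) and MCL1 (1.59) had the narrowest. BCL2L1 was lowest at 15 weeks and highest at 30 weeks in exposed cells, by a ratio of 2.01.

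Other genes of the same pathways were counted on lists drawn from textbook knowledge. Of these lists none had a called gene at 24 h or 15 weeks in the comparison of exposed with control cells, where 0 genes of the whole table passed and 277 and 823 had an unadjusted p under 0.05. At 30 weeks 2 of 9 tested genes of the rest of the BCL2 family were called (22.2%, against 23.7% of all genes tested), with a list median log2 fold change of -0.061 against 0.008 over all genes. BCL2L2 (BCL-W), another guardian, rose from 12.1 CPM ± 2.4 (SD, n = 3) in control to 21.4 CPM ± 2.3 (SD, n = 4) in exposed cells (log2 fold change 0.82, adjusted p = 0.000451), and BOK, an effector relative, fell to 73.2 CPM ± 10 (SD, n = 4) in exposed from 110 CPM ± 14 (SD, n = 3) in control cells (-0.58, adjusted p = 0.00303).

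Of the apoptosome, the caspases and their inhibitors 2 of 17 were called at 30 weeks (11.8%, against 23.7% of all genes; list median -0.101). APAF1, the scaffold on which CASP9 is activated, was at 16.1, 20.5 and 20.3 CPM in control and 28.9, 24.4, 25.7 and 30.2 CPM in exposed samples, all of which were higher. Its log2 fold change was 0.52 (SE 0.12, adjusted p = 0.00500), on the opposite side from CASP9. CASP6, an executioner caspase, fell to 11.1 CPM ± 0.58 (SD, n = 4) in exposed from 14.6 CPM ± 0.16 (SD, n = 3) in control cells (-0.40, adjusted p = 0.0164). The call of CASP6 was lost with no filter on low counts (adjusted p = 0.0554) and with the 30-week samples alone (0.0644). The number called on this list moved with the tool and the libraries. DESeq2 gave 5, and the count was 4 without control replicate 3 at 30 weeks, 5 without both libraries that stand apart and 8 without exposed replicate 2, when the number called over all genes rose from 3961 to 5704.

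Of the death receptor genes 3 of 10 tested were called, beside 23.7% of all genes (list median 0.192). The decoy receptor TNFRSF10D fell (log2 fold change -0.68, adjusted p = 0.000122), and RIPK1, an adaptor kinase (0.64, adjusted p = 0.00292), and the death receptor FAS (1.13, adjusted p = 0.00476) rose. FAS stayed low in both arms, at 2.57 CPM ± 0.86 (SD, n = 3) in control and 5.67 CPM ± 2.0 (SD, n = 4) in exposed cells. Of 20 targets of p53 other than the members, 9 were called, 4 higher and 5 lower, beside 23.7% of all genes (list median 0.036). Without control replicate 1 at 30 weeks 4 were called, while the number over all genes fell from 3961 to 2491, and PHLDA3 was then not called (adjusted p = 0.0776). The oxidoreductase TP53I3 (-0.76, adjusted p = 0.000248) and PHLDA3, an inhibitor of AKT (-0.57, adjusted p = 0.00971), fell, and FDXR, ferredoxin reductase (0.55, adjusted p = 0.00258), and FAS rose. The p53 targets among the members did not share a direction at 30 weeks, with BAX at -0.27, BBC3 at 0.18 and PMAIP1 at 0.10, none of them called.

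Of the integrated stress response genes, the pathway that raises PMAIP1 when protein synthesis is slowed, 5 of 10 were called, 3 higher and 2 lower, beside 23.7% of all genes (list median -0.070). DDIT4, an inhibitor of mTORC1, fell to 15.6 CPM ± 2.9 (SD, n = 4) in exposed from 66.0 CPM ± 12 (SD, n = 3) in control cells (log2 fold change -2.08, adjusted p = 2.52e-07), and CHAC1, which degrades glutathione, fell as well (-1.24, adjusted p = 0.00412). ASNS, asparagine synthetase (0.89, adjusted p = 0.000769), and the transcription factor ATF3 (0.56, adjusted p = 0.00939) rose. Of the partners on the mitochondrial outer membrane 4 of 13 were called (30.8%, against 23.7% of all genes; list median -0.119). The mitophagy receptors BNIP3 (-0.99, adjusted p = 0.00319) and BNIP3L (-0.50, adjusted p = 0.0118) and the fusion protein MFN2 (-0.30, adjusted p = 0.0446) fell, and the fission protein DNM1L rose (0.42, adjusted p = 0.0315). The arms overlapped for BNIP3, at 86.5 to 144.9 CPM in control and 44.3 to 91.8 CPM in exposed samples, the highest exposed sample being replicate 2. The call of MFN2 was lost in 9 of 16 alternative settings, with adjusted p up to 0.157, and that of DNM1L in 5 of 16, with a log2 fold change of 0.22 (adjusted p = 0.143) without both libraries that stand apart. Without control replicate 1 at 30 weeks 2 of the 13 were called. Between the changes at 30 and 15 weeks only DDIT4 of all these lists was called different.

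**Figure D5:**
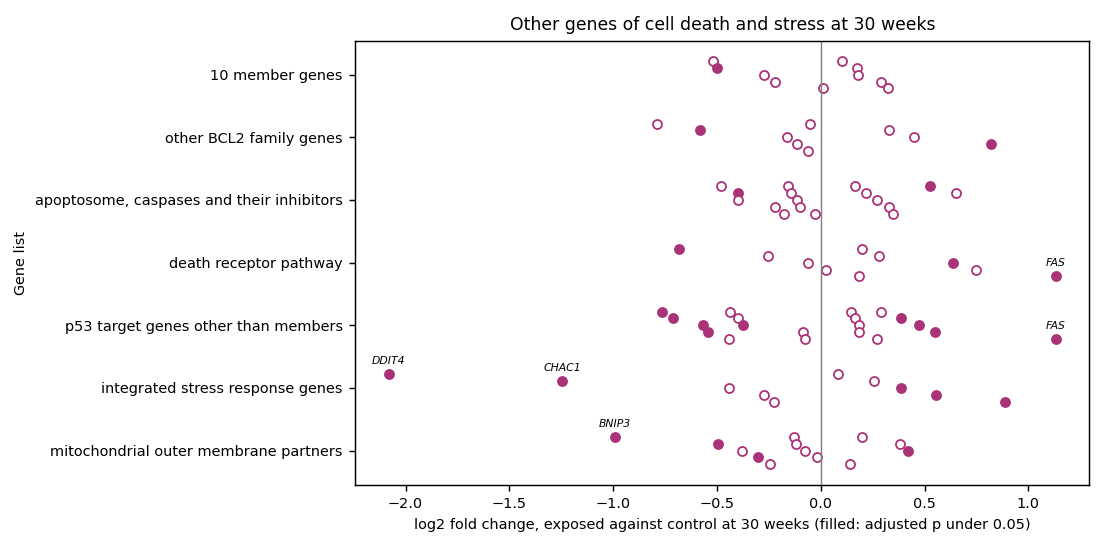
Fitted log2 fold change (x axis) in PET-NPL-exposed against control cells at 30 weeks for each tested gene of the 10 members and of 6 other lists (y axis, 1 point per gene, spread vertically only for legibility), filled where the adjusted p was under 0.05, with names of called genes beyond 0.9 in size. Every list holds genes on both sides of 0, and DDIT4 (-2.08) lies farthest out.

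Some members share exonic bases with neighbours, and whether reads were counted by strand is not given in the sources used here. BCL2L1 shares 1735 bases with ABALON on the other strand, BCL2L11 shares 727 with MIR4435-2HG, which had 911 to 2198 counts per library, and BAD shares 404 with GPR137, at 222 to 354 counts. The levels of BCL2L11 and BAD are uncertain to that extent. That of BCL2L1 is uncertain as well, by an amount that cannot be given, since no counts for ABALON were found. CASP9 shares 101 bases with CELA2B, at 0 to 15 counts, and MCL1 shares 328 with ADAMTSL4-AS1, at 12 to 55 counts. BAK1 has near-identical pseudogenes, BAK1P1 and BAK1P2, which were not analysed here.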

How the data were processed

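Total RNA of 15 BEAS-2B samples was sequenced from stranded libraries depleted of ribosomal RNA. The authors cleaned the reads with Rfastp, aligned them to GRCh38 and obtained counts per gene with Rsubread (featureCounts, per the submitters' processing notes). The deposited values are those raw counts, not normalized, for 28395 genes by Entrez number, of which 27745 matched a symbol, and every column was used. The study's own test was limma-voom with surrogate variables whose number is not given in the sources used here, and a design of that kind is an alternative below. At 15 weeks this alternative called 10 genes in all, fewer than the study reported for that time.

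The main test was the quasi-likelihood test of edgeR 4.0.16 under R 4.3.3, with 1 mean for each condition, on all 15 samples. It used TMM scaling and the 16740 genes that filterByExpr kept for the 6 conditions. Adjustment of p-values followed Benjamini and Hochberg over these genes, and 0.05 was the threshold. The other tools were sva 3.50.0, DESeq2 1.42.0 and limma 3.58.1. All groups shared 1 estimate of the spread, although replicates differed more at 30 weeks than at the earlier times. The shared estimate may therefore be too small for 30 weeks and too large for 24 h and 15 weeks. Log2 CPM used a prior count of 2, and standard errors are those of fitted log2 fold changes. Gene positions and promoter sequences came from RefSeq, which had a promoter window for 9 of the 10 genes. Canonical transcript lengths, and the exons left out of the promoter sequences, came from the GENCODE annotation of GRCh38. The procedure was run on simulated data in which all groups shared the spread of a gene. That run therefore says nothing on the larger spread between replicates at 30 weeks. Alternatives were DESeq2, limma-voom, limma-voom with 2 surrogate variables, no filter, upper-quartile scaling, removal of 6 small noncoding RNAs, the replicate number as a block, each time point alone and each replicate left out. Batch 1 alone and the removal of both 30-week libraries that stand apart were added after seeing the data.

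The members and the gene lists were chosen with earlier results of these data known. All 10 members were reported in each comparison, and on each other list up to 4 called genes with the smallest adjusted p at 30 weeks were named. For the member called at 30 weeks the 3 genes with the nearest pattern and a mean of at least 1 CPM were named. Libraries held 23143202 to 31459990 counts. No protein sequences were used here. A summed level of 1 list of cell type markers is not reported here.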

Additional observations from a re-analysis of the deposited data

Results flagged for a closer look

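In exposed cells at 30 weeks PMAIP1 was at 26.63 CPM in replicate 2 against 10.21 to 12.96 CPM in the other replicates (gap over range 0.833, above Dixon's 95% critical value for 4 samples). CASP6 was at 10.23 CPM in the same library against 11.34 to 11.44 CPM (0.912). Of 28 genes checked in this way, chance flags about 1 in 20.

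The exposure change of DDIT4 at 30 weeks minus that at 15 weeks was -1.864 on the log2 scale (SE 0.28, adjusted p = 0.000809 by edgeR), and DDIT4 was lower in 4 of 4 exposed samples at 30 weeks. For 3 of the same 28 genes the exposed samples lay on 1 side of every control sample at 15 weeks and on the opposite side at 30 weeks. The difference between the changes did not pass the test, with 0.703 for RIPK1 (adjusted p = 0.0925 by edgeR), 0.855 for ATF3 (0.0508) and -0.645 for BNIP3L (0.123). These 3 had been named for a small adjusted p at 30 weeks. Of all genes tested, 45.3% did not overlap between the arms at 15 weeks and 27.3% at 30 weeks, in either direction. How many of all genes turned sides was not counted.

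The same turn of sides involved 24 h for 4 genes, with differences that were not tested, beside 26.0% of all genes without overlap at 24 h. From 24 h to 15 weeks the log2 fold change differed by 0.301 for BAK1 (from -0.193 to 0.109), by -0.246 for BCL2L1 (from 0.141 to -0.105), by -0.365 for TNFRSF10D and by 0.384 for FDXR. From 24 h to 30 weeks it differed by -0.886 for TNFRSF10D and by 0.774 for FDXR.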

How the results depend on the processing

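Without surrogate variables 1 member was called at 30 weeks, and limma-voom with surrogate variables called 3, with MCL1 (0.249) and BCL2L11 (-0.511) added to CASP9. Over all 16740 genes tested, 3961 were called in the reported fit and 5665 with surrogate variables. With the 30-week samples alone 0 members and 2370 genes in all were called. Leaving out 1 replicate gave 0 to 2 members. The total over all genes was then 2491 without control replicate 1 and 5704 without exposed replicate 2. It was 4436 with DESeq2 and 4371 without both libraries that stand apart. In control cells at 15 weeks against 24 h, leaving out 1 replicate gave 1 to 2 members in place of 4. The list of the apoptosome and caspases gave 5 with DESeq2, 6 with surrogate variables, 1 with the time point alone, 5 without both libraries that stand apart and 2 to 8 with 1 replicate left out. The list of mitochondrial partners gave 8 with surrogate variables, 2 with the time point alone and 2 to 6 with 1 replicate left out, and the p53 targets 4 to 12. The causes were not tested. All other counts stayed within 1.5 times the reported one in the alternatives run.

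The labels do not say whether the replicate number marks a pairing. Deviations of samples with the same number correlated at -0.06 at 24 h, 0.029 at 15 weeks and -0.118, 0.303 and 0.098 at 30 weeks. Samples with unlike numbers correlated at -0.481 to 0.359 at 30 weeks. With 2 samples a group, like and unlike numbers at 24 h and 15 weeks differ only in sign, so these values cannot decide it. With the replicate block 1 member was called at 30 weeks (CASP9, -0.647), 4 and 3 at 15 weeks against 24 h in control and exposed cells, and 6 and 4 at 30 against 15 weeks.

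Signs changed only for log2 fold changes that did not pass the test. With surrogate variables BAX at 15 weeks was -0.008, PMAIP1 0.102 at 15 weeks and -0.106 at 30 weeks, and the difference between 30 and 15 weeks was 0.004 for BAK1 and -0.208 for PMAIP1. Upper-quartile scaling gave -0.006 for BAX at 15 weeks and -0.016 for BAK1 at 30 weeks, and limma-voom gave a difference of -0.051 for BBC3. The replicate block gave -0.017 for BAK1 at 30 weeks and differences of -0.096 for BBC3 and -0.122 for CASP9. Without both libraries that stand apart PMAIP1 was -0.302 at 30 weeks, and the differences were 0.091 for BAK1 and -0.244 for PMAIP1. Leaving out 1 replicate gave, at 24 h, -0.124 to 0.111 for BAX, -0.263 to 0.008 for MCL1, -0.029 to 0.500 for BCL2L11 and -0.241 to 0.127 for PMAIP1. At 15 weeks it gave -0.082 to 0.118 for BAX, -0.188 to 0.034 for BCL2, -0.210 to 0.014 for MCL1, -0.230 to 0.700 for BBC3 and -0.223 to 0.096 for PMAIP1. At 30 weeks it gave -0.062 to 0.147 for BAK1 and -0.302 to 0.321 for PMAIP1. The differences between 30 and 15 weeks ran from -0.170 to 0.037 for BAK1, -0.090 to 0.194 for BAD, -0.520 to 0.410 for BBC3, -0.245 to 0.378 for PMAIP1 and -0.178 to 0.243 for CASP9.

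With 2 samples a group at 24 h and 15 weeks, and a lone sample assumed to vary like the other groups when 1 is left out, small changes cannot be detected. The 95% confidence intervals of the members at 24 h reached from -0.79 to 0.88 on the log2 scale, so an adjusted p of 1 does not show that a gene was unchanged.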
